A study of Mus musculus with 17 samples.

Results

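The genes described here are the 5 NF-kB subunits (Rela, Relb, Rel, Nfkb1 and Nfkb2). With them are the activating kinases (Chuk, Ikbkb and Map3k14) and the kinase scaffold Ikbkg, in all 9 of the 30199 gene names on the array. Their probes were found by gene name, and 14 array probes carry these names. Each was read in murine DA1-3b cells, a leukaemia line that carries the Bcr-Abl oncogene, from mouse strain C3H eOuJ. The cells had been transfected with plasmids for forms of p65/RelA, and the series compares wild-type p65 with a non-cleavable mutant and with the pieces that cleavage would give. The groups were the mutant D361E (4 arrays), the N-terminal fragment 1-361 (3 arrays), the C-terminal fragment 362-549 (3 arrays), both fragments in the same cells (1-361+362-549, 3 arrays) and full-length wild-type p65 (WT, 4 arrays). All 5 groups therefore carry a p65 plasmid on top of the line's own Rela gene. Cells with the empty plasmid named in the treatment protocol were not analysed here, so no level below stands for untransfected cells. The labels do not say whether the arrays of a group came from separate cultures or separate transfections, so the p-values measure the spread between arrays, which may be technical.

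NF-kB is a family of dimeric transcription factors. In the canonical arm, the IkB kinase complex, made of the kinases IKKalpha (Chuk) and IKKbeta (Ikbkb) and the scaffold NEMO (Ikbkg), marks the IkB inhibitors for destruction and frees dimers of RelA, c-Rel and the p50 product of Nfkb1. In the noncanonical arm, the kinase NIK (Map3k14) acts through IKKalpha, the Nfkb2 product p100 is trimmed to p52, and dimers of RelB and p52 enter the nucleus. Relb and Nfkb2 are themselves known target genes of canonical NF-kB, so the arms are linked at the level of transcription. Rela, Rel, Nfkb1, Ikbkb and Ikbkg are treated below as the 5 canonical members, and Relb, Nfkb2, Chuk and Map3k14 as the 4 noncanonical ones, although IKKalpha serves both arms.

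The sequences shown first are those of transcripts that moved and of Rela, for which no call was made. The Nfkb2 probe lay on chromosome 19 between 46386146 and 46386285 of mm9, a span longer than the 60 bases of the probe, and the first Nfkb1 probe lay on chromosome 3 between 135254550 and 135254609. Relb had 3 probes, and the ends of the first pair are shown because these share 9 bases, in capitals, and so read adjoining stretches of the transcript. The exon that each probe reads was not looked up.
Nfkb2 probe: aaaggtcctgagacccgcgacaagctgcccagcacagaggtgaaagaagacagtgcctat
Nfkb1 probe 1: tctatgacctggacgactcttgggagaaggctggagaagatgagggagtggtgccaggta
Relb probe 2, last 30 bases: ggacatctgcagcgctggtggGAAGATGGG
Relb probe 1, first 30 bases: GAAGATGGGgagcactccggttctctttga

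Start-site windows of 300 bases (250 before the start and 50 after it) came from RefSeq on build GRCm38.p6, which differs from the mm9 build of the array's coordinates. The table held 6 of the 9 members. Relb, Nfkb1 and Ikbkb had no window in it and were not searched. The motif searched on both strands was GGG, then any 3 bases, then TTCC, a form of the NF-kB binding sequence, and it was present in 5.56% of all 32851 windows (1825 windows). Capitals mark the matches. Nfkb2 had 2 in the window chr19:46304487-46304786, whose first bases lie at -38 and -11 from the start, and 2 in the window chr19:46305445-46305744, whose first bases lie at -236 and 10. The last of these lies again in another, overlapping Nfkb2 window. Rel and Chuk had 1 match each, and the windows of Rela (chr19:5637291-5637590), Ikbkg and Map3k14 had none. A match is a run of letters and not a measured binding site. All 3 windows shown lie on the plus strand and are printed from 5′ to 3′.
Nfkb2 window 1: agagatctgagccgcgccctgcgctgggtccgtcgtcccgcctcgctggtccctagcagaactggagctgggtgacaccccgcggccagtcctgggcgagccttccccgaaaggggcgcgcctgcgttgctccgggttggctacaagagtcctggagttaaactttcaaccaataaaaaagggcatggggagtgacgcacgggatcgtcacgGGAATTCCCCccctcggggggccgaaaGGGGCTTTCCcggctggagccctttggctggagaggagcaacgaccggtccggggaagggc
Nfkb2 window 2: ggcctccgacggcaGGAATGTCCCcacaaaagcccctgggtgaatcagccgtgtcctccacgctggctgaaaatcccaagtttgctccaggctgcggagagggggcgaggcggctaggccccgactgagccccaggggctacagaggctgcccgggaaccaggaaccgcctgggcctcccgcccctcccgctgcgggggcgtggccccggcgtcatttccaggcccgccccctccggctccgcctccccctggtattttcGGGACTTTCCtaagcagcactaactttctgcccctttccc
Rela window: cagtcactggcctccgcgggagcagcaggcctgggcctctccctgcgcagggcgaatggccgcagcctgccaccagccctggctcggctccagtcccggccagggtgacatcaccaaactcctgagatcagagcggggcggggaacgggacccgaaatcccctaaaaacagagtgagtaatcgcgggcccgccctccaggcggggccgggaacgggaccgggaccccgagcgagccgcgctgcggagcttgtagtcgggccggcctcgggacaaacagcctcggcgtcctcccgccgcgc

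Levels are given as the log2 of an array's processed signal minus the log2 of that array's 75th percentile, so 0 is the brightness that 25% of spots exceed. Since probes bind with different strength, levels were compared between arrays for 1 probe and never between probes. Of the 14 member probes, 13 were well above background on all 17 arrays. The 75th percentile itself ranged from 636 to 1214, and arrays of a group correlated at 0.965 to 0.995 over all probes. Marker sums cover the brightest probe of every listed gene on the array, also of genes that failed the background filter. Of the line's 13 myeloid markers, 12 were on the array and 6 passed the filter (called measured below). The 12 summed to 42.5 to 62.8 in 1-361+362-549 cells and to 80.7 to 92.5 in WT cells (linear units of the 75th percentile). Kit and Cebpa, which are on that list, were not well above background on any array. Fibroblast markers summed to at most 0.102 on any of them.

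Relb and Nfkb2, the 2 subunits of the noncanonical dimer, were higher in cells with both fragments than in cells with any other p65 form. Relb (first probe) was about 1.93-fold and Nfkb2 about 1.74-fold higher in 1-361+362-549 cells than in WT cells. In that comparison 4.57% of all probes were called. Both calls against WT were lost when slide was added to the model (limma's adjusted p = 0.158 and 0.239). The third Relb probe was called in no comparison. In the 6 comparisons among D361E, 1-361, 362-549 and WT, where 0.435% to 1.16% of all probes were called, no member was. Nfkb1 was called higher in 1-361+362-549 cells against D361E cells alone. Rela, Ikbkb, Ikbkg, Chuk and Map3k14 were called in none of the 10 comparisons between groups. Unless stated, calls are those of the main fit, which has no block for slide or for round of title numbers.

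**Figure D1:**
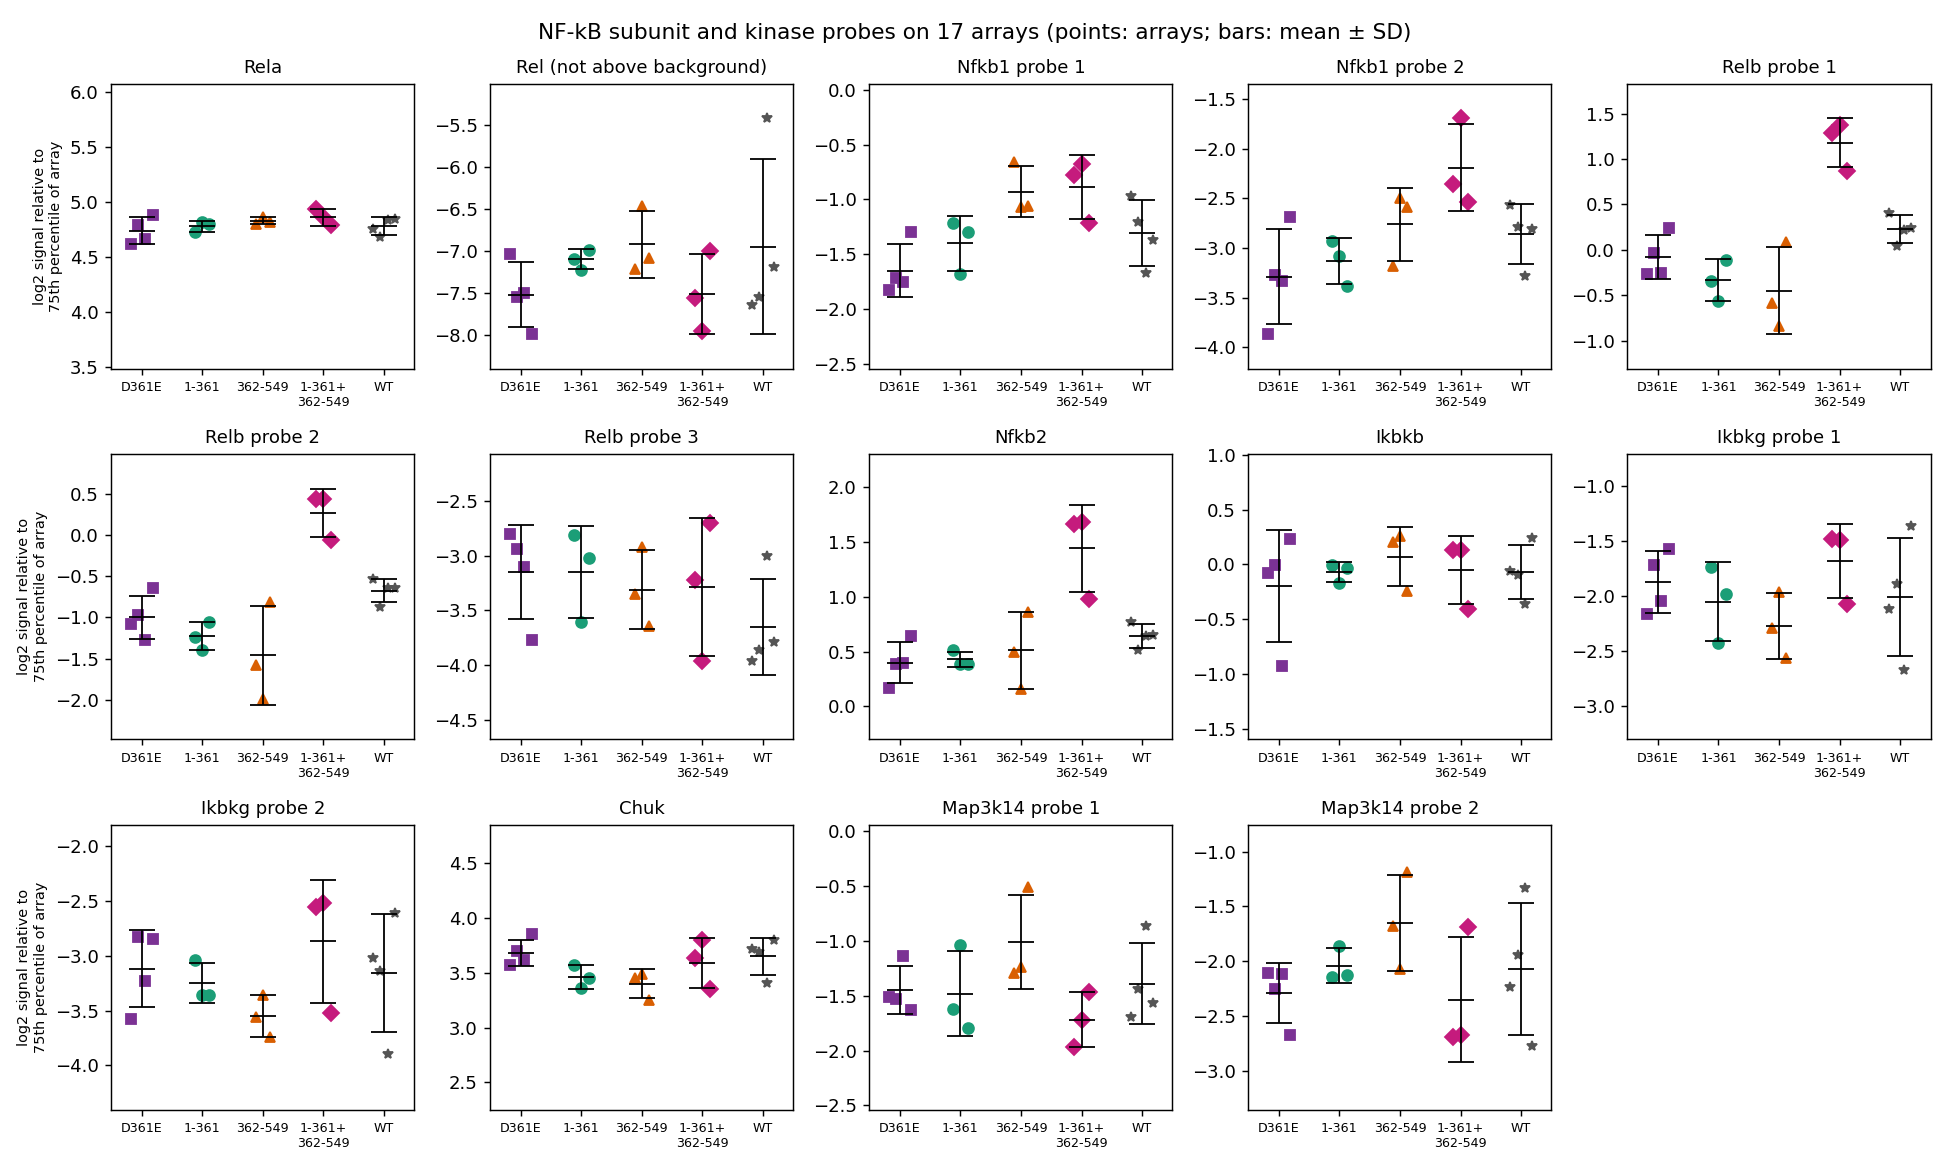
Level of each of the 14 member probes on each of 17 arrays (vertical axis: log2 signal relative to the array's 75th percentile; points: arrays; bars: mean ± SD of the group). For Relb probes 1 and 2 and for Nfkb2 the 3 arrays of 1-361+362-549 lie above every other array. For the third Relb probe and all kinase and Ikbkg probes, every group overlaps WT.

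RelB is the DNA-binding partner of p52. Its first probe, at 20191722 to 20191781 on chromosome 7 (mm9), read 1.29, 1.37 and 0.87 in the 3 arrays of 1-361+362-549. It read -0.27, -0.04, -0.26 and 0.24 in D361E, -0.34, -0.56 and -0.11 in 1-361, and -0.59, -0.84 and 0.09 in 362-549. The WT arrays read 0.41, 0.04, 0.22 and 0.24. The 3 arrays with both fragments thus stood above all 14 others, and replicate 3 was the lowest of them. The level rose by 0.95 ± 0.21 (log2 difference ± SE) against WT, with limma's adjusted p = 0.0157. That call was lost without 1-361+362-549 replicate 1 or 2 or WT replicate 2, where the difference stayed at 0.85 or more and the adjusted p reached 0.097 by limma. Against 1-361 it rose by 1.51 ± 0.23 (2.86-fold, adjusted p = 0.000679 by limma). Against 362-549 it rose by 1.62 ± 0.23 (3.08-fold, adjusted p = 0.000266 by limma), and against D361E by 1.26 ± 0.21 (2.4-fold, adjusted p = 0.00128).

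This Relb probe averaged 1.18 ± 0.27 (SD, n = 3) with 1-361+362-549 and -0.08 ± 0.24 (n = 4) with D361E. It averaged -0.33 ± 0.23 with 1-361, -0.45 ± 0.48 with 362-549 (n = 3 each) and 0.23 ± 0.15 with WT (n = 4). WT thus ranked just below 1-361+362-549 and above the other 3 forms, and below 1-361+362-549 no pair of neighbours in the order was called. The mean of each single fragment lay under that of WT, with a difference of -0.56 (95% interval -1.01 to -0.11) for 1-361 and -0.67 (-1.13 to -0.22) for 362-549. Limma's adjusted p over all probes was 0.536 and 0.328, so neither was called.

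The second Relb probe, at 20191773 to 20191832, overlaps the first and is no independent measurement. It read 0.44, 0.44 and -0.06 in 1-361+362-549, against -0.54, -0.87, -0.65 and -0.65 in WT. In D361E it read -1.08, -0.97, -1.27 and -0.65. In 1-361 it read -1.24, -1.40 and -1.06, and in 362-549 -1.58, -1.99 and -0.81. The pair of probes tracked each other at r = 0.99 over the 17 arrays, and the differences of the second were 0.95 ± 0.24 against WT, 1.51 ± 0.25 against 1-361, 1.73 ± 0.25 against 362-549 and 1.27 ± 0.24 against D361E (limma's adjusted p = 0.0295, 0.00166, 0.000383 and 0.00297). Its call against WT was lost without 1-361+362-549 replicate 1 or 2 or WT replicate 2, 3 or 4 (limma's adjusted p up to 0.149). Without 362-549 replicate 3, its lower level in 362-549 than in WT was called, at -1.11 ± 0.20 (limma's adjusted p = 0.0247).

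The third Relb probe disagreed with the first pair. It lies at 20203058 to 20203117 and carries an Ensembl transcript accession in place of the RefSeq accession of the others. Its levels were -3.22, -3.96 and -2.70 in 1-361+362-549, against -3.96, -3.86, -3.0 and -3.79 in WT, and the groups overlapped. The difference was 0.36 (95% interval -0.34 to 1.06), and limma's adjusted p over the 5 groups was 0.748. Its correlation with either of the other probes was -0.28 over 17 arrays. The Relb result therefore rests on 1 region of the transcript.

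Nfkb2 encodes p100, both the precursor of p52 and an inhibitor of RelB-containing dimers. Its single probe read 1.66, 1.68 and 0.98 in 1-361+362-549. It read 0.17, 0.39, 0.40 and 0.64 in D361E, 0.51, 0.39 and 0.39 in 1-361, and 0.50, 0.16 and 0.86 in 362-549. The WT arrays read 0.77, 0.51, 0.64 and 0.65. Again the 3 arrays with both fragments were above the other 14, although replicate 3, at 0.98, was close to the highest 362-549 array, at 0.86. Nfkb2 rose by 0.80 ± 0.19 against WT (limma's adjusted p = 0.0239), by 1.01 ± 0.20 against 1-361 (0.00658), by 0.93 ± 0.20 against 362-549 (0.00906) and by 1.04 ± 0.19 against D361E (0.00268). The call against WT was lost without 1-361+362-549 replicate 1 or 2 or WT replicate 2, 3 or 4 (lowest difference 0.68, limma's adjusted p up to 0.148), and that against 362-549 without 1-361+362-549 replicate 1 or 2 (up to 0.0551). Among the other groups the means were 0.40 ± 0.19 for D361E, 0.43 ± 0.07 for 1-361, 0.51 ± 0.35 for 362-549 and 0.64 ± 0.11 for WT (SD). All 6 differences among them lay between -0.24 and 0.11, with intervals reaching from -0.62 to 0.52 at most.

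**Figure D2:**
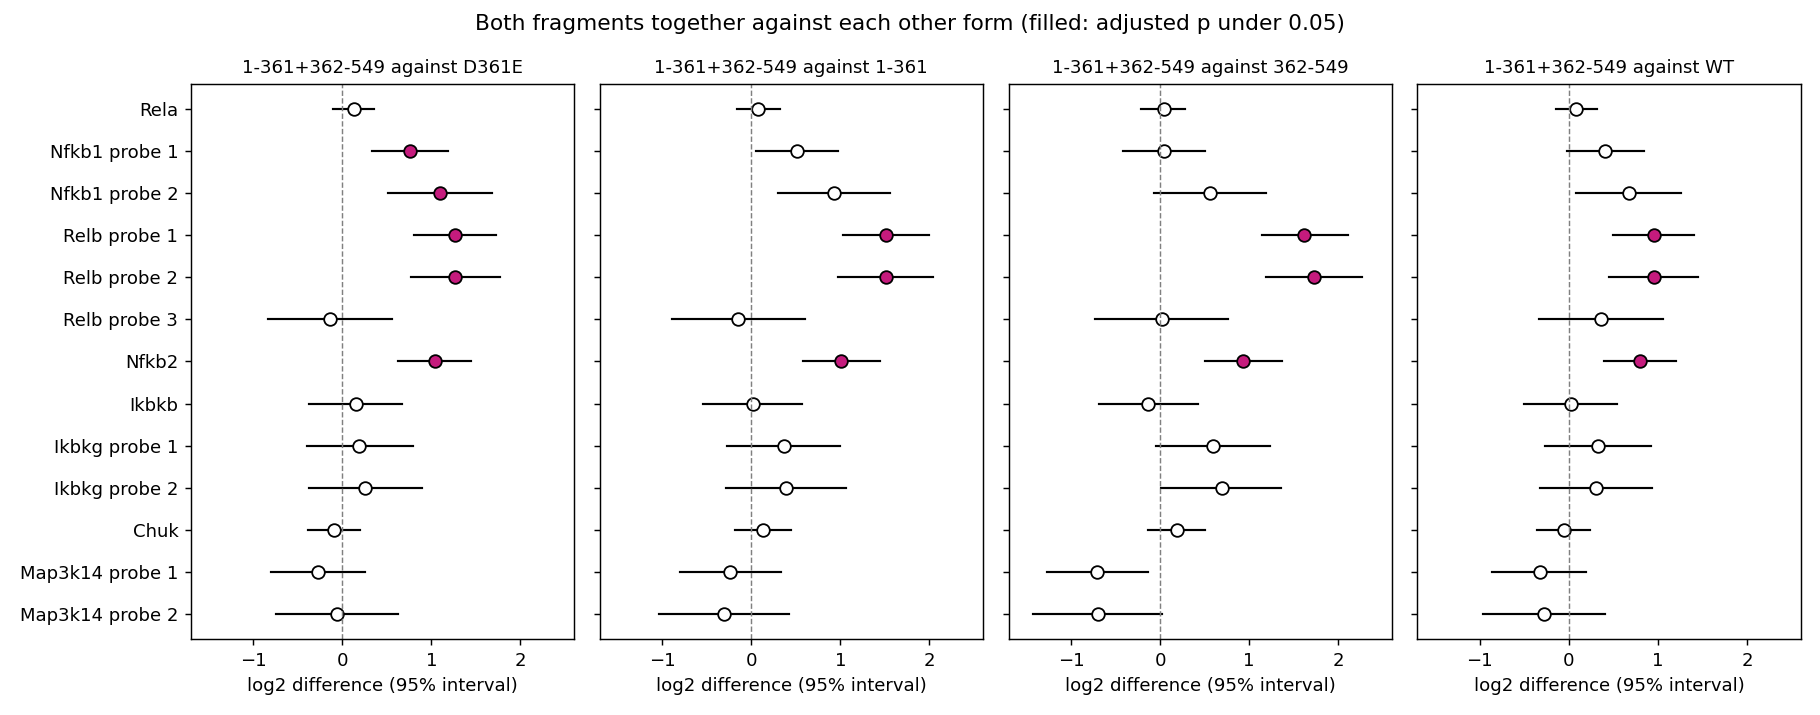
Difference of 1-361+362-549 from D361E, 1-361, 362-549 and WT for the 13 tested member probes (horizontal axis: log2 difference with its 95% interval; filled points: limma adjusted p under 0.05). Relb probes 1 and 2 and Nfkb2 are filled in all 4 panels, and the Nfkb1 probes against D361E.

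The arrays came from 6 slides, and slide could be set beside group only in part. The 3 arrays of 1-361+362-549 were on 3 different slides, of which 1 also held WT, 2 held 1-361, 3 held D361E and none held 362-549. Within slides, the first Relb probe was higher by 0.96 against WT, by 1.21 to 1.94 against 1-361 and by 1.14 to 1.55 against D361E. Nfkb2 was higher by 0.91, by 0.47 to 1.29 and by 0.81 to 1.26 in the same comparisons. With slide as a block in the model, the first Relb probe differed by 1.11 ± 0.30 from WT (limma's adjusted p = 0.158), by 1.54 ± 0.28 from 1-361 (0.0159), by 1.78 ± 0.34 from 362-549 (0.0283) and by 1.28 ± 0.24 from D361E (0.0143). Nfkb2 differed by 0.82 ± 0.25 from WT (0.239), 0.92 ± 0.23 from 1-361 (0.0712), 0.91 ± 0.28 from 362-549 (0.206) and 1.04 ± 0.20 from D361E (0.0164). The call against WT was thus lost for both genes, and those of Nfkb2 against 1-361 and 362-549 as well, with 7 residual degrees of freedom in place of 12. Relb kept its other 3 calls and Nfkb2 that against D361E.

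**Figure D3:**
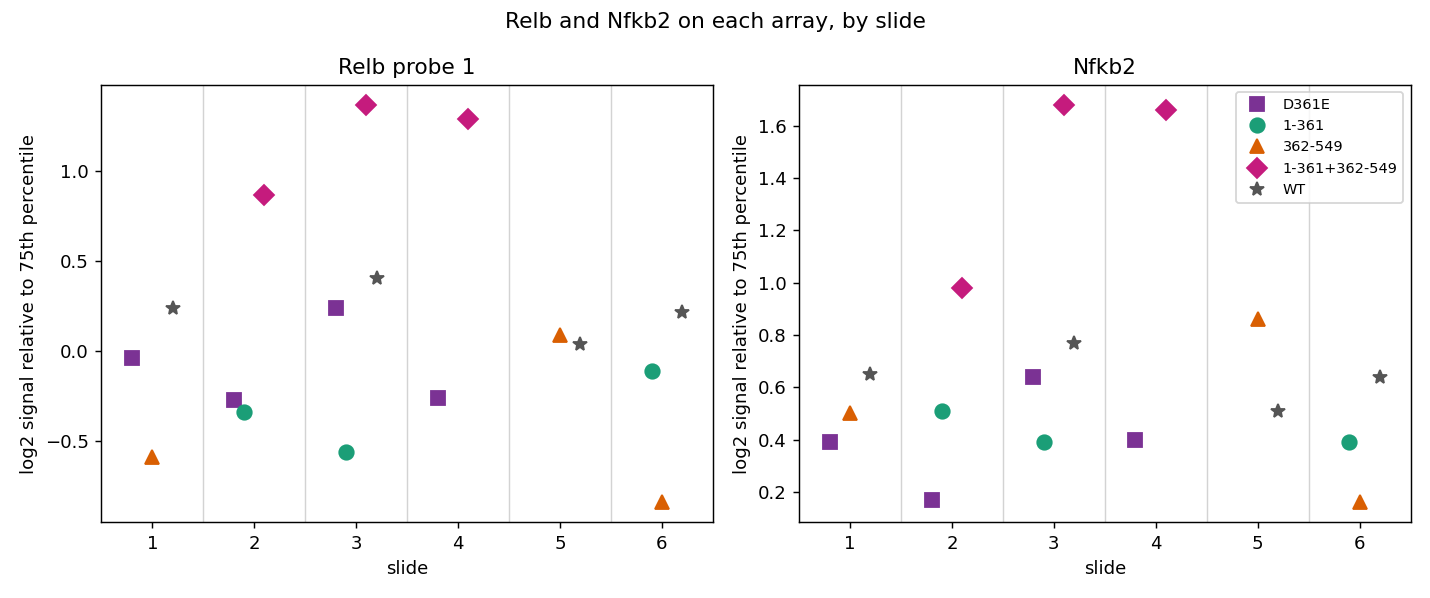
Relb probe 1 and Nfkb2 on each array, by slide (horizontal axis: slide; vertical axis: log2 signal relative to the 75th percentile; points: arrays, coloured by p65 form). On each of the 3 slides that hold it, 1-361+362-549 is the highest array.

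Relb and Nfkb2 also tracked each other from array to array. Their correlation was 0.92 over the 17 arrays and 0.74 over the 14 arrays without 1-361+362-549. The arrays share slides and scaling, and those with both fragments stand apart, so these values only describe the pattern. Among all other genes, the probes most like Relb were Samd9l, an interferon-inducible gene (r = 0.941), an unnamed probe (0.922) and Nfkb2 itself (0.919). Those most like Nfkb2 were Parp9, a PARP family member linked to interferon responses (0.945), Anapc7, a subunit of the anaphase-promoting complex (0.935), and Prkar1a, a regulatory subunit of protein kinase A (0.925).

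**Figure D4:**
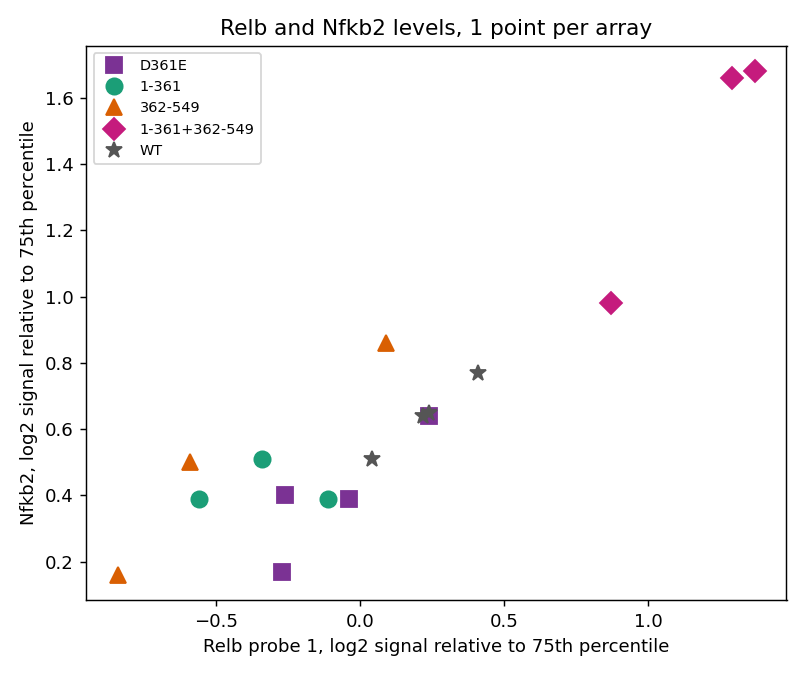
Relb probe 1 (horizontal axis) against Nfkb2 (vertical axis), both as log2 signal relative to the array's 75th percentile, 1 point per array. The 3 arrays of 1-361+362-549 lie at the upper right, and the other 14 spread from low to middle values of both genes.

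The other noncanonical members are kinases. Chuk (IKKalpha) read 3.63, 3.80 and 3.35 in 1-361+362-549, against 3.72, 3.69, 3.41 and 3.80 in WT, a difference of -0.06 (95% interval -0.36 to 0.24). Over the 10 comparisons its differences ran from -0.29 to 0.19, and limma's adjusted p was at least 0.405. NIK (Map3k14), whose abundance is controlled mainly by degradation of the protein, had 2 probes. The first averaged -1.72 ± 0.25 (SD, n = 3) in 1-361+362-549 and -1.01 ± 0.43 (n = 3) in 362-549, a difference of -0.71 (95% interval -1.27 to -0.14, limma's adjusted p = 0.0875), and these 2 groups did not overlap. The second averaged -2.35 ± 0.57 and -1.65 ± 0.44 in the same groups (-0.70, interval -1.43 to 0.02, adjusted p = 0.175). Both Map3k14 differences pointed down while Relb and Nfkb2 rose, but neither was called in the main fit. With the round of the title number as a block, both were called lower than in 362-549 (limma's adjusted p = 0.000703 and 0.0152). That fit called 38.5% of all probes in this comparison. Against WT the main-fit differences were -0.33 and -0.28.

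Among the canonical subunits, Rela varied little. Its probe, at 5648070 to 5648129 on chromosome 19, read 4.94, 4.86 and 4.79 in 1-361+362-549, 4.62, 4.79, 4.66 and 4.88 in D361E, 4.73, 4.82 and 4.80 in 1-361, and 4.80, 4.86 and 4.82 in 362-549. The WT arrays read 4.75, 4.68, 4.84 and 4.85, and all groups overlapped WT. The 10 differences ran from -0.04 to 0.13, and the intervals reached no further than -0.29 to 0.35. Whether the probe lies inside the transfected p65 sequence was not looked up, so it is no check of how much of each p65 form the cells made.

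Nfkb1 encodes p105, the precursor of p50. Its first probe read -0.78, -0.68 and -1.22 in 1-361+362-549, against -1.83, -1.72, -1.75 and -1.30 in D361E, without overlap. The second read -2.35, -1.69 and -2.54 in 1-361+362-549, against -3.87, -3.27, -3.33 and -2.69 in D361E, again without overlap. The first probe read -1.22, -1.68 and -1.30 in 1-361, -0.66, -1.07 and -1.06 in 362-549, and -0.97, -1.21, -1.67 and -1.37 in WT. On the first probe the 1-361+362-549 arrays thus overlapped 362-549 and WT, met 1-361 at -1.22 and lay above D361E. On the second they overlapped 362-549 but not D361E, 1-361 or WT. The pair of Nfkb1 probes rose by 0.76 ± 0.20 and 1.10 ± 0.28 against D361E (limma's adjusted p = 0.0295 and 0.0219). Both calls were lost with the slide block (0.114 and 0.0539), and without any 1 of D361E replicates 1, 2 and 3 or 1-361+362-549 replicates 1 and 2. Against WT the probes differed by 0.41 (95% interval -0.02 to 0.84) and 0.67 (0.08 to 1.26), with adjusted p of 0.314 and 0.224. Against 1-361 they differed by 0.51 (0.05 to 0.97) and 0.93 (0.3 to 1.56), with limma's adjusted p of 0.138 and 0.0594. The first Nfkb1 probe was also higher in 362-549 than in D361E by 0.71 (0.28 to 1.14), at -0.93 ± 0.23 (n = 3) against -1.65 ± 0.24 (n = 4), and was not called (limma's adjusted p = 0.144). Between 1-361+362-549 and 362-549 the probes differed by 0.04 (-0.42 to 0.50) and 0.56 (-0.07 to 1.19).

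Rel, which encodes c-Rel, was not well above background on any of the 17 arrays. Its probe gave between -7.99 and -5.42, and 16 of the 17 values were surrogates set by the scanner software. No level or difference is given for it.

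The kinase Ikbkb (IKKbeta) read 0.13, 0.13 and -0.41 in 1-361+362-549, against -0.06, -0.10, -0.36 and 0.24 in WT, and differed by 0.02 (95% interval -0.50 to 0.54). Its 10 differences ran from -0.14 to 0.27. Ikbkg (NEMO) had 2 neighbouring probes on chromosome X that tracked each other at r = 0.92. Their largest differences were in 1-361+362-549 against 362-549, at 0.59 (-0.04 to 1.23) and 0.69 (0.01 to 1.36), with limma's adjusted p of 0.19 and 0.156. No gene of the IKK complex was called in the main fit, and the intervals of Ikbkg still hold differences of the size seen for Nfkb2. With the round of the title number as a block, both Ikbkg probes were called higher than in 362-549 (limma's adjusted p = 0.00791 and 0.0275). That fit called 38.5% of all probes in this comparison.

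Counted over arms, the 7 noncanonical probes gave 3 rises in each comparison of 1-361+362-549 with another form, and the 6 canonical probes gave 0, except for the 2 of Nfkb1 against D361E. The difference between the arms was not tested, and 2 of the 3 noncanonical rises are the overlapping Relb probes. In 1-361+362-549 against WT, 3 of 13 member probes were called, all higher, where 4.57% of all 19774 probes were called (1.7% higher). Against 1-361 it was 3 higher, with 9.37% of all probes called (3.86% higher). Against 362-549 it was 3, with 13.2% called (5.13% higher). Against D361E it was 5, with 8.71% called (3.78% higher). The groups did not overlap for 4 of 13 member probes against WT (16% of all probes), 5 against 1-361 (29.3%), 4 against 362-549 (28.4%) and 5 against D361E (17.3%). These 4 comparisons share the 1-361+362-549 arrays and are not independent of each other. The median difference of the 13 probes against WT was 0.33, and that of all probes 0.04.

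Among the other forms the counts were 0 of 13 throughout. D361E against WT called 0.435% of all probes, 1-361 against WT 0.637% and 362-549 against WT 0.622%. The comparison of 1-361 with 362-549 called 0.536% of all probes, that of 1-361 with D361E 0.915% and that of 362-549 with D361E 1.16%. At an unadjusted limma p under 0.05, D361E against WT had 0 member probes, where 4.61% of all probes passed. 1-361 against WT had 2 (7.12% of all) and 362-549 against WT had 2 (8.29%), in both cases the first pair of Relb probes. 1-361 against 362-549 had 1, from Nfkb1 (5.33%), 1-361 against D361E had 0 (8.07%) and 362-549 against D361E had 1, again from Nfkb1 (9.63%). At this number of arrays, Relb differences of the size seen for single fragments did not pass the adjustment. Over all 5 groups, limma's F-test called 3 member probes (Relb probes 1 and 2 at adjusted p = 0.00105 and 0.002, and Nfkb2 at 0.0135), where it called 7.55% of all probes.

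Genes around these members were read from 4 lists. Of 11 receptors and regulators of NIK turnover, 9 were measured, and in 1-361+362-549 against WT 2 fell and 0 rose, where 2.87% of all probes were called lower. Tnfrsf1b, the TNF receptor type 2, fell by 1.15 ± 0.22 (limma's adjusted p = 0.00437; well above background on 2 of 3 arrays with both fragments). Tnfrsf12a, the TWEAK receptor, averaged 1.05 ± 0.18 (n = 3) in 1-361+362-549 and 1.80 ± 0.36 (n = 4) in WT, and fell by 0.76 ± 0.19 (limma's adjusted p = 0.0297). Both receptors can feed the noncanonical arm. The medians were -0.14 for the list and 0.04 for all probes.

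Of 16 IkB family and processing genes, 15 were measured, and none rose against WT with any form. Nfkbia, the main IkB inhibitor and a classical p65 target, averaged 3.55 ± 0.48 (n = 3) in 362-549, 4.08 ± 0.28 (n = 3) in 1-361+362-549 and 5.03 ± 0.14 (n = 4) in WT. It fell in both, with differences of -1.48 ± 0.22 for 362-549 and -0.96 ± 0.22 for both fragments together (limma's adjusted p = 0.00209 and 0.0176). Tnfaip3, the feedback deubiquitinase A20, fell in 3 comparisons with WT, with differences of -1.78 ± 0.24 for 1-361, -1.92 ± 0.24 for 362-549 and -1.34 ± 0.24 for both fragments (adjusted p = 0.000924, 0.000507 and 0.00295). Of all probes, 0.303% were called lower against WT with 1-361, 0.415% with 362-549 and 2.87% with both fragments. In cells with both fragments, Relb and Nfkb2 thus stood above WT while Nfkbia and Tnfaip3 stood below it. The other 13 of the 15 were not called there, and the medians were 0.14 for the list and 0.04 for all probes. With D361E none of the 15 was called.

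Of 27 canonical adaptors and upstream kinases, 26 were measured, and 1 fell and 0 rose in 1-361+362-549 against WT, a share near that of all probes called lower (2.87%). This was Nod1, a sensor of bacterial cell walls, which fell by 1.01 ± 0.26 (limma's adjusted p = 0.0356). Of 14 RelA cofactors and modifiers, all 14 were measured and 0 were called against WT with any form. With the slide block, the calls of Tnfrsf1b, Tnfrsf12a and Nod1 against WT were lost (adjusted p = 0.135, 0.508 and 0.363), as were those of Nfkbia (0.422) and Tnfaip3 (0.104) with both fragments and that of Tnfaip3 with 1-361 (0.0598). The falls of Tnfaip3 and Nfkbia with 362-549 kept the call (0.00885 and 0.0302).

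Other measures differed from WT on some or all of the same 3 arrays, and several marker lists also shifted in other forms. As above, sums cover every listed gene on the array, while those measured are the genes that passed the background filter. The 75th percentile of 1-361+362-549 was 1065, 1214 and 847, against 773, 1014, 825 and 1023 for WT, and replicate 3, the lowest for Relb and Nfkb2 among the 3, was also the dimmest. Mast cell and basophil markers, of which 5 of 6 were measured, summed to 0.141 to 0.283 in 1-361+362-549, against 1.97 to 3.65 in WT, with Cpa3, Mcpt8, Mcpt4 and Fcer1a called lower. Megakaryocyte markers, 4 of 5 measured, summed to 110 to 183, against 38.9 to 51.8 in WT, with Pf4 called higher. B cell markers, 1 of 5 measured, summed to 2.27 to 2.61 in 1-361+362-549, against 1.39 to 1.88 in WT, without overlap and with 0 called, and Cd79a and Ms4a1 of that list were not well above background on any array. T cell markers, 5 of 6 measured, summed to 3.14 to 5.68, against 4.42 to 6.28 in WT, with Cd3d and Cd3g called lower. Macrophage markers, 4 of 6 measured, summed to 1.03 to 2.66, against 2.02 to 5.3 in WT, with Emr1 called lower, and among the myeloid markers the receptor chain Csf2rb was called lower. Of the erythroid markers, 4 of 6 measured, Klf1, Epor and Hbb-b1 were called, 2 higher and 1 lower, and the list summed to 16.2 to 24, against 10.4 to 20.3 in WT. Some of these shifts were also seen in other forms against WT. Pf4 was called higher with 1-361 (list sum 78.1 to 100) and Cpa3 lower with D361E (0.598 to 0.919). With 1-361, Cpa3, Mcpt4 and Fcer1a were called, 1 higher and 2 lower. The mast cell sum with 362-549 (1.16 to 1.85) and the myeloid sum with 1-361 (73.1 to 79.2) lay below WT without overlap. The megakaryocyte sum with 362-549 (31.7 to 38.1) also lay below WT, opposite to both fragments together. Hbb-b1 was called higher with D361E, 1-361 and 362-549, and the erythroid sum reached 85.1 with 362-549. The B cell sum in D361E, 1.99 to 2.42, did not overlap WT. Cd3d and Cd3g went the other way with 1-361 and were called higher, as was Cd3g with 362-549. The part of array brightness and of these markers in the Relb and Nfkb2 differences was not tested. In bulk RNA, a change in the share of cells that make a transcript and a change in its amount per cell cannot be told apart.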

How the data were processed

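RNA of 17 DA1-3b samples was hybridised with Cy3 label to 1-colour Agilent arrays. Each deposited file gives linear intensity per spot, which per the file headers was background-subtracted and spatially detrended by Agilent Feature Extraction 10.7.3.1, the version also named in the submitters' processing notes. The deposited series table equals these values (largest relative difference 0). Probe positions are on mm9, per the file headers.

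Groups came from the source name of each sample. The log2 of the processed signal was taken and the log2 of the array's 75th percentile over non-control spots (43020 of 44397) was subtracted. Outlier spots were left out and spots of 1 probe averaged, which left out 132 of 39429 probes. Probes that no group had well above background on all its arrays were dropped, and 19774 were tested. Files were read with data.table (1.17.8), and limma 3.58.1 (lmFit, eBayes; R 4.3.3) fitted 1 model over the 5 groups with 10 comparisons and an F-test over the 4 with WT. P-values were Benjamini-Hochberg adjusted over all tested probes and called under 0.05. Every probe of a member was tested. The fit was tested on simulated data with independent noise on each array, which does not cover deviations that arrays share. The number of arrays limits the precision.

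Alternatives were quantile normalization, no scaling, normexp (offset 50), other filters, the brightest probe, only the compared groups, a slide block, a replicate block, leaving out each array, and, chosen after seeing the data, leaving out the third round of title numbers. Titles carry a running number whose 4 rounds hold up to 1 array of each group. Of the 31 array pairs of a round, 25 had deviations correlated above 0.1 (range -0.17 to 0.73). Pairing was accepted only if every pair exceeded 0.1, so the rounds were not taken to pair the arrays. In the third round all 10 pairs did (0.32 to 0.73), and for this reason it was left out as an alternative.

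All members were named, with the called genes of 4 pathway lists in comparisons with WT (at most 4 per list and comparison) and the 3 probes most like each member called by the F-test. Markers of 8 cell types were read and summed over all listed genes on the array. The members and lists were chosen with earlier results of these data known, and support nothing by themselves. Listed genes were counted by their brightest probe.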

Additional observations from a re-analysis of the deposited data

How the results depend on the processing

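The 14 member changes called here kept their sign under every alternative that holds them (the brightest probe per gene holds 9, all with their call), and all 14 calls were kept with quantile normalization and with a filter for probes above background on all arrays. Calls were kept for 13 without scaling, 10 without a filter, 9 of 14 with only the compared groups in the fit, 8 with normexp and 7 with the slide block. Member probes called in 1-361+362-549 against WT numbered 0 with normexp (1.04% of all probes called), 1 without a filter (1.63%) and 0 with the slide block (1.43%). When 1 array was left out they numbered 0 to 3, with 2.56% to 7.2% of all probes called. There were fewer without 1-361+362-549 replicate 1 or 2 or WT replicate 2, 3 or 4. Only this comparison of the 4 fell to 0 member calls, so it is the least firm. The share of all probes was 4.57% in the main fit, so calls over all probes also became fewer with normexp, without a filter and with the slide block. Against D361E 3 were called with normexp (2.3% of all probes called), without a filter (3.02%) and with only the compared groups (3.81%). It was also 3 with the slide block (4.24%) and with the brightest probe per gene (9.71%). When 1 array was left out 3 to 5 were called, with 4.83% to 16.7% of all probes. It was 3 without D361E replicate 1, 2 or 3 or 1-361+362-549 replicate 1 or 2. Against 362-549 8 were called without scaling, where 34.3% of all probes were called and the median difference of all probes was 0.57. It was 5 without the third round (15.5% of all probes) and 2 to 5 when 1 array was left out (4.83% to 24.7%). Against 1-361 3 to 5 were called when 1 array was left out (3.42% to 23.6% of all probes). The 5 in both comparisons came without 1-361+362-549 replicate 3, where 23.6% and 24.7% of all probes were called against 1-361 and 362-549. In 362-549 against WT 1 was called without the third round (0.506% of all probes), and 0 to 1 when 1 array was left out. It was 1 without 362-549 replicate 3, where 0.455% of all probes were called. The F-test called 1 with the slide block and 2 to 5 when 1 array was left out (2 without 1-361+362-549 replicate 1 or 2, and 5 without D361E replicate 4). For the F-test the share of all probes was counted only in the main fit (7.55%). With the replicate block, the round of the title number, 7 were called by the F-test. Of 1-361+362-549, 7 were called against WT (29.6% of all probes), 5 against 1-361 (35.7%), 7 against 362-549 (38.5%) and 6 against D361E (38.7%). In 362-549 against D361E it was 1 (3.25%). All 14 calls were kept and 12 were added, higher in Nfkb1 and Ikbkg and lower in Map3k14. The causes of these changes were not tested, except that the slide block leaves 7 residual degrees of freedom in place of 12. Of 238 repeats of the 14 calls with 1 array left out, 213 were kept.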
